A study of Homo sapiens with 16 samples.

Results

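The lysosomal cathepsins described here are the 10 genes CTSA, CTSB, CTSC, CTSD, CTSH, CTSK, CTSL, CTSO, CTSS and CTSZ. These genes were chosen by name, with earlier results of these data known. They are 10 of the 19356 protein-coding genes, and of 34451 genes in all, to which deposited transcripts could be matched. Expression was measured by poly-A RNA sequencing in the 4 stages of the isogenic BJ fibroblast model, each grown on duplicate plates for 6 passages at atmospheric or at 3% oxygen, which gives 8 groups of 2 libraries. The stages are primary BJ cells, immortalized cells (BJ hTERT+, which express the catalytic subunit of telomerase), transformed cells (BJ hTERT+ SV40+, with Simian virus 40 Large-T added) and metastasizing cells (BJ hTERT+ SV40+ Ras-G12V, with mutated H-Ras added). All cells thus come from 1 line, each later stage carries the changes of the earlier ones, and every group shares the medium and the carbon dioxide level. The oxygen comparison asks how each stage responds to moderate hypoxia, and the comparison of neighbouring stages asks what goes with each added gene. The study had already reported CTSB, CTSK, CTSL and CTSS as lower in immortalized cells at low oxygen and in the step to transformed cells.

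Cathepsins are proteases of the lysosome, the acidic compartment in which cells degrade proteins. Most are made as inactive precursors that carry a mannose 6-phosphate tag, are sorted to lysosomes by receptors for that tag, and become active when the propeptide is removed at low pH. CTSB, CTSC, CTSH, CTSK, CTSL, CTSO, CTSS and CTSZ are cysteine proteases of the papain family, CTSD is an aspartic protease, and CTSA is a serine carboxypeptidase. Fibroblasts and tumor cells can also secrete cathepsins, which then cleave matrix proteins such as collagen and elastin. Transcription of many lysosomal genes is promoted by TFEB and its relatives, which bind an E-box with the core CACGTG.

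Because members were lower together at 3% oxygen in immortalized cells, the 250 bases upstream of their start sites were read from the RefSeq table of promoters (GRCh38.p14), which matched 6 of the 10 members (CTSA, CTSC, CTSD, CTSH, CTSL and CTSZ). CTSB, CTSK, CTSO and CTSS were not matched. The stretch before CTSA is shown because it holds CACGTG 2 times, 42 and 25 bases before the start. That before CTSD holds it 1 time, 47 bases before the start. Those before CTSC, CTSH, CTSL and CTSZ hold none, and of these the stretch before CTSL is shown. The stretches shown, of CTSA, CTSD and CTSL, lie at chr20:45891085-45891334 (plus strand), chr11:1763928-1764177 (minus strand) and chr9:87725869-87726118 (plus strand). They are written 5′ to 3′ along the gene and have CACGTG in capitals.
CTSA: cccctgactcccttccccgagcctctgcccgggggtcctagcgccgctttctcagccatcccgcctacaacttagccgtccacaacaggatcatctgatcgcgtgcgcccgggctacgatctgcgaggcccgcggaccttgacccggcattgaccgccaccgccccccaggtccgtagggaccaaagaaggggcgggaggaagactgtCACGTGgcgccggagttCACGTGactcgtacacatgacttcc
CTSD: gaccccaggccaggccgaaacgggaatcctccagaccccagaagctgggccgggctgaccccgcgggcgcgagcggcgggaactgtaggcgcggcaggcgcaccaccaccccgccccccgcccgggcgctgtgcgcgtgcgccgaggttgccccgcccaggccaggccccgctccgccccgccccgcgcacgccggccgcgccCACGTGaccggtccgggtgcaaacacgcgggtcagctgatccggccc
CTSL: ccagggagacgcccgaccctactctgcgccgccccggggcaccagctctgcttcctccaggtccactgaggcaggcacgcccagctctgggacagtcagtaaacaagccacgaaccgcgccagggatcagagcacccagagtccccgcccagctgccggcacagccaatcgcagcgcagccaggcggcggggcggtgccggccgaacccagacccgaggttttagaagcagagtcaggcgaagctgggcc
CACGTG, which reads the same on both strands, was in 2 of the 6 stretches and in 6.34% of 35116 RefSeq promoters of that length. The letters ACGTG, or the same with G in place of the A, are the core of the hypoxia response element. They were in 5 of the 6 on either strand, against 43.2% of all promoters, and CACGTG contains them. TGAGTCA, the letters bound by AP-1, were in 0 of the 6 against 4.20%. A match describes letters and not a binding site, and a missing match says nothing about the factor. The part of these letters in the members' values was not tested.

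Values are in TPM, a transcript abundance unit that corrects for transcript length and scales each library to the same total, so that levels can be compared between genes within a library. A gene was called differentially expressed between oxygen levels (hDEG) or between stages (DEG) when its adjusted p was under 0.01 and its log2 fold change was above 1 or below -1, in limma on log2(TPM + 0.5) with Benjamini-Hochberg adjustment over all protein-coding genes tested. Fold changes on this scale understate those of genes near 0.5 TPM. All 10 members were above 1 TPM in every library, from 1.02 TPM for CTSO to 3196 TPM for CTSB, and passed the filter of 1 TPM in every comparison. With 2 libraries a group the smallest two-sided p of an exact permutation test is 0.333, so no such test is given. From 11654 to 11943 genes exceeded 1 TPM in a library. TERT, the added telomerase gene, was at no more than 0.543 TPM in the 4 primary libraries and at 31.6 TPM or more in the 12 others, as the labels say. The p-values measure the spread between plates grown in parallel. The 2 libraries of metastasizing cells at 3% oxygen stand apart from other pairs: 13.3% of genes of at least 1 TPM differed more than 2-fold between them, against 2.56% to 5.41% in the other 7 groups. Of 10 fibroblast markers, COL1A1 and VIM among them, none was at 0 in both libraries of a group, and their summed level ranged from 12502 to 21555 TPM in primary and immortalized libraries and from 3897 to 5861 TPM in transformed and metastasizing libraries. Macrophages and osteoclasts are rich in cathepsins. The 8 leukocyte markers summed to between 2.53 and 7.90 TPM, with AIF1 and TYROBP at 0 in every library, and the 4 osteoclast markers to at most 3.81 TPM, with 1 at 0 in every library. The 4 epithelial markers summed to at most 3.61 TPM and the 3 endothelial markers measured to at most 10.4 TPM. In bulk RNA, fewer cells that express a gene and less RNA per cell cannot be told apart.

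Of the 10 cathepsins, 8 had their highest mean in immortalized cells at atmospheric oxygen. CTSB was the highest cathepsin in 16 of 16 libraries and held 33.9% to 52.2% of the summed cathepsin TPM of a group. In immortalized cells the 10 genes added up to 6894 and 7060 TPM at atmospheric oxygen and to 2850 and 2690 TPM at 3% oxygen, a 2.52-fold difference of the means. In primary cells the sums were 3459 and 3081 TPM at atmospheric oxygen and 2654 and 2331 TPM at 3% oxygen. In transformed cells the order was the opposite, with 1799 and 1766 TPM at atmospheric oxygen and 2242 and 2304 TPM at 3% oxygen, and in metastasizing cells the 4 sums overlapped between 1871 and 2076 TPM. The immortalized pair at atmospheric oxygen thus lies above every other library. That pair enters the oxygen comparison of its stage, the 2 steps at atmospheric oxygen on either side of it and 2 of the tests of a difference in response, so these comparisons share samples and are not independent of each other. Of the difference of 4207 TPM between the oxygen levels of immortalized cells, CTSB made up 46.0% and CTSK 31.1%.

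**Figure D1:**
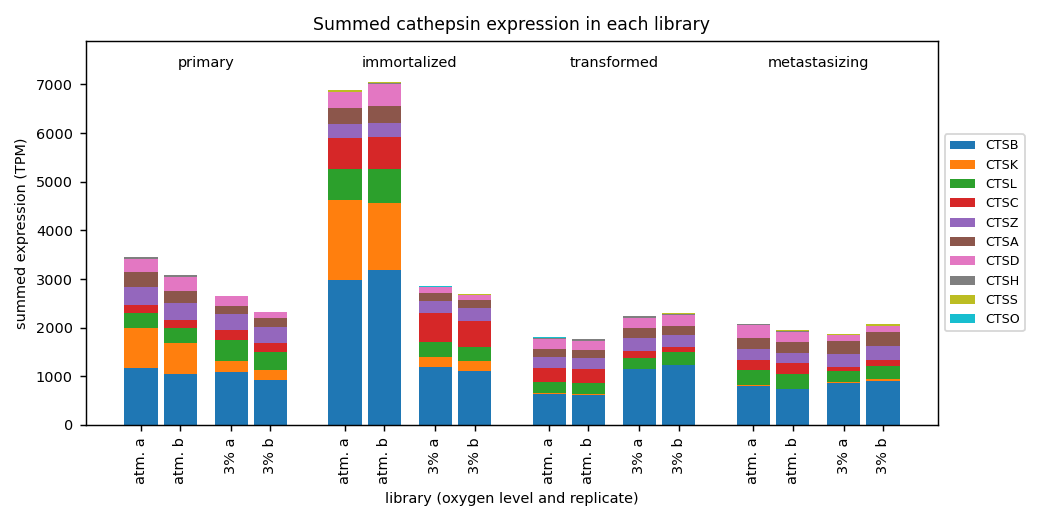
Summed expression of the 10 cathepsins (TPM, axis from 0) in each of the 16 libraries, by stage, oxygen level (atm., atmospheric) and replicate, with 1 colour for each gene. The 2 immortalized libraries at atmospheric oxygen reach 6894 and 7060 TPM, against at most 3459 TPM in the other 14.

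CTSK, a collagenase best known from bone resorption by osteoclasts, varied most, 360-fold between its highest and lowest group means. It lies on chromosome 1 of GRCh37 from 150767356 to 150782053. CTSK was at 836 and 637 TPM in primary cells at atmospheric oxygen and at 236 and 206 TPM at 3% oxygen. Immortalized cells held 1641 and 1374 TPM of CTSK at atmospheric oxygen and 202 and 196 TPM at 3% oxygen. In both stages the libraries at 3% oxygen lay below those at atmospheric oxygen without overlap. In transformed cells CTSK was at 4.10 and 4.27 TPM at atmospheric oxygen and at 7.65 and 11.2 TPM at 3% oxygen. In metastasizing cells it was at 11.9 and 8.49 TPM at atmospheric oxygen and at 16.5 and 48.5 TPM at 3% oxygen. Levels in the later stages were therefore low at both oxygen levels, the 2 metastasizing libraries at 3% oxygen were far apart, and the order of the oxygen levels was the reverse of that in the earlier stages. In the order of the 8 group means only metastasizing cells at atmospheric and transformed cells at 3% oxygen, which stand next to each other, overlapped. CTSK held 22.4% of the summed cathepsin TPM in primary and 21.6% in immortalized cells at atmospheric oxygen, and 0.235% in transformed cells at that level.

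CTSS, a protease of antigen-presenting cells that stays active at neutral pH, lies on the same strand of chromosome 1 from 150702555 to 150738433, 28922 bases from CTSK. The order of its group means differed from that of its neighbour. CTSS was at 5.98 and 2.25 TPM in primary cells at atmospheric oxygen and at 2.53 and 3.33 TPM at 3% oxygen. In immortalized cells it was at 30.4 and 28.4 TPM at atmospheric oxygen and at 4.65 and 3.11 TPM at 3% oxygen, which do not overlap. In transformed cells it was at 2.80 and 2.41 TPM at atmospheric oxygen and at 2.26 and 14.9 TPM at 3% oxygen. In metastasizing cells it was at 7.13 and 8.10 TPM at atmospheric oxygen and at 19.8 and 26.0 TPM at 3% oxygen. Transformed replicate b at 3% oxygen stood alone, 6.60-fold above replicate a. The high groups were thus immortalized cells at atmospheric oxygen and metastasizing cells at 3% oxygen, and most groups in between overlapped with a neighbour in the order.

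CTSB, which has both endopeptidase and peptidyl-dipeptidase activity and is the cathepsin most often measured in tumors, lies on chromosome 8 from 11700033 to 11727042. CTSB was at 1164 and 1054 TPM in primary cells at atmospheric oxygen and at 1080 and 933 TPM at 3% oxygen. Immortalized cells held 2986 and 3196 TPM of CTSB at atmospheric oxygen and 1194 and 1116 TPM at 3% oxygen. In transformed cells it was at 642 and 623 TPM at atmospheric oxygen and at 1143 and 1230 TPM at 3% oxygen. The oxygen levels overlapped in primary cells, and lay apart in opposite order in immortalized and transformed cells. In metastasizing cells CTSB was at 805 and 731 TPM at atmospheric and at 861 and 899 TPM at 3% oxygen. At 3% oxygen the means of the 4 stages lay close together, between the extremes that the atmospheric libraries of immortalized and transformed cells set.

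CTSL, an endopeptidase that degrades much of what reaches the lysosome, lies on chromosome 9 from 90338966 to 90346384. CTSL was at 303 and 296 TPM in primary cells at atmospheric oxygen and at 432 and 364 TPM at 3% oxygen. In immortalized cells it was at 638 and 686 TPM at atmospheric oxygen and at 318 and 299 TPM at 3% oxygen. The order of the oxygen levels was opposite in the 2 stages, without overlap in either. In transformed cells CTSL was at 235 and 225 TPM at atmospheric and at 233 and 249 TPM at 3% oxygen, which overlap, and in metastasizing cells at 318 and 310 TPM and at 221 and 266 TPM.

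CTSD, the aspartic protease of the family, lies on chromosome 11 from 1773982 to 1785803. CTSD was at 279 and 302 TPM in primary cells at atmospheric oxygen and at 197 and 129 TPM at 3% oxygen. In immortalized cells it was at 332 and 467 TPM at atmospheric oxygen and at 128 and 114 TPM at 3% oxygen. Both stages were lower at 3% oxygen without overlap, with replicates up to 1.54-fold apart. In transformed cells CTSD was at 202 and 184 TPM at atmospheric oxygen and at 217 and 231 TPM at 3% oxygen. In metastasizing cells it was at 261 and 216 TPM at atmospheric oxygen and at 111 and 123 TPM at 3% oxygen. Transformed cells were thus the 1 stage in which CTSD was not lower at 3% oxygen.

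CTSC, a dipeptidyl peptidase that activates serine proteases of leukocytes, lies on chromosome 11 from 87998237 to 88092852. CTSC was at 158 and 173 TPM in primary cells at atmospheric oxygen and at 195 and 188 TPM at 3% oxygen. Immortalized cells held 628 and 658 TPM of CTSC at atmospheric oxygen and 581 and 529 TPM at 3% oxygen. It was therefore high in immortalized cells at both oxygen levels, unlike CTSB, CTSK and CTSL, which were highest there at atmospheric oxygen alone. In transformed cells CTSC was at 289 and 288 TPM at atmospheric oxygen and at 134 and 114 TPM at 3% oxygen. In metastasizing cells it was at 203 and 223 TPM at atmospheric oxygen and at 89.2 and 124 TPM at 3% oxygen. In these later stages the libraries at 3% oxygen lay below those at atmospheric oxygen without overlap.

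CTSH, an aminopeptidase, lies on chromosome 15 from 79213400 to 79241916 and had a pattern of its own. CTSH was at 32.0 and 24.9 TPM in primary cells at atmospheric oxygen and at 3.91 and 4.59 TPM at 3% oxygen. In immortalized cells it was at 7.05 and 6.81 TPM at atmospheric oxygen and at 2.33 and 2.31 TPM at 3% oxygen. In transformed cells it was at 35.7 and 28.6 TPM at atmospheric oxygen and at 33.1 and 20.9 TPM at 3% oxygen. Immortalized cells at 3% oxygen thus held its lowest group mean. Transformed cells at atmospheric oxygen, where CTSB, CTSK, CTSL and CTSS had their lowest group means, held its highest, which overlapped with primary cells at that oxygen level. In metastasizing cells CTSH was at 17.5 and 18.4 TPM at atmospheric oxygen and at 10.6 and 6.97 TPM at 3% oxygen.

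CTSA, which besides its peptidase activity protects beta-galactosidase and neuraminidase in the lysosome, lies on chromosome 20 from 44518783 to 44527588 and ranged from 155 to 342 TPM over the 16 libraries. Its highest group was immortalized cells at atmospheric oxygen (334 and 342 TPM) and its lowest the same cells at 3% oxygen (155 and 165 TPM). CTSA was at 294 and 246 TPM in primary cells at atmospheric oxygen and at 176 and 171 TPM at 3% oxygen. Transformed cells held 157 and 179 TPM of CTSA at atmospheric and 205 and 190 TPM at 3% oxygen, and metastasizing cells 230 and 229 TPM and 275 and 292 TPM. The order of the oxygen levels was thus opposite in the earlier and the later stages, without overlap in any. In the later stages the differences of CTSA were small and not called. They were 0.24 (SE 0.098, limma adjusted p = 0.0835) in transformed and 0.31 (SE 0.098, limma adjusted p = 0.038) in metastasizing cells on the log2 scale. CTSZ, a carboxypeptidase also called cathepsin X, lies on the same chromosome from 57560741 to 57583293 and was the most even member, from 199 to 380 TPM. Its highest group was primary cells at atmospheric oxygen, and its highest and lowest group means differed 1.71-fold. CTSO, a little-studied cysteine cathepsin, lies on chromosome 4 from 156842732 to 156875064 and was low throughout, from 1.02 to 8.80 TPM. It was highest in immortalized cells at atmospheric oxygen, at 8.80 and 8.37 TPM, and lowest in metastasizing cells at 3% oxygen, at 1.34 and 1.02 TPM. At 3% oxygen immortalized cells held 6.89 and 6.29 TPM of CTSO, which overlaps the 6.36 and 5.14 TPM of primary cells at atmospheric oxygen. CTSO was at 2.11 and 1.50 TPM in transformed cells at atmospheric and at 2.69 and 2.68 TPM at 3% oxygen. PLTP overlaps CTSA and NELFCD overlaps CTSZ on the other strand, at 8.74 to 89.0 and 16.1 to 76.2 TPM, and reads were quantified with kallisto's default settings, which do not use strand, so that reads from such overlaps are not told apart by strand.

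**Figure D2:**
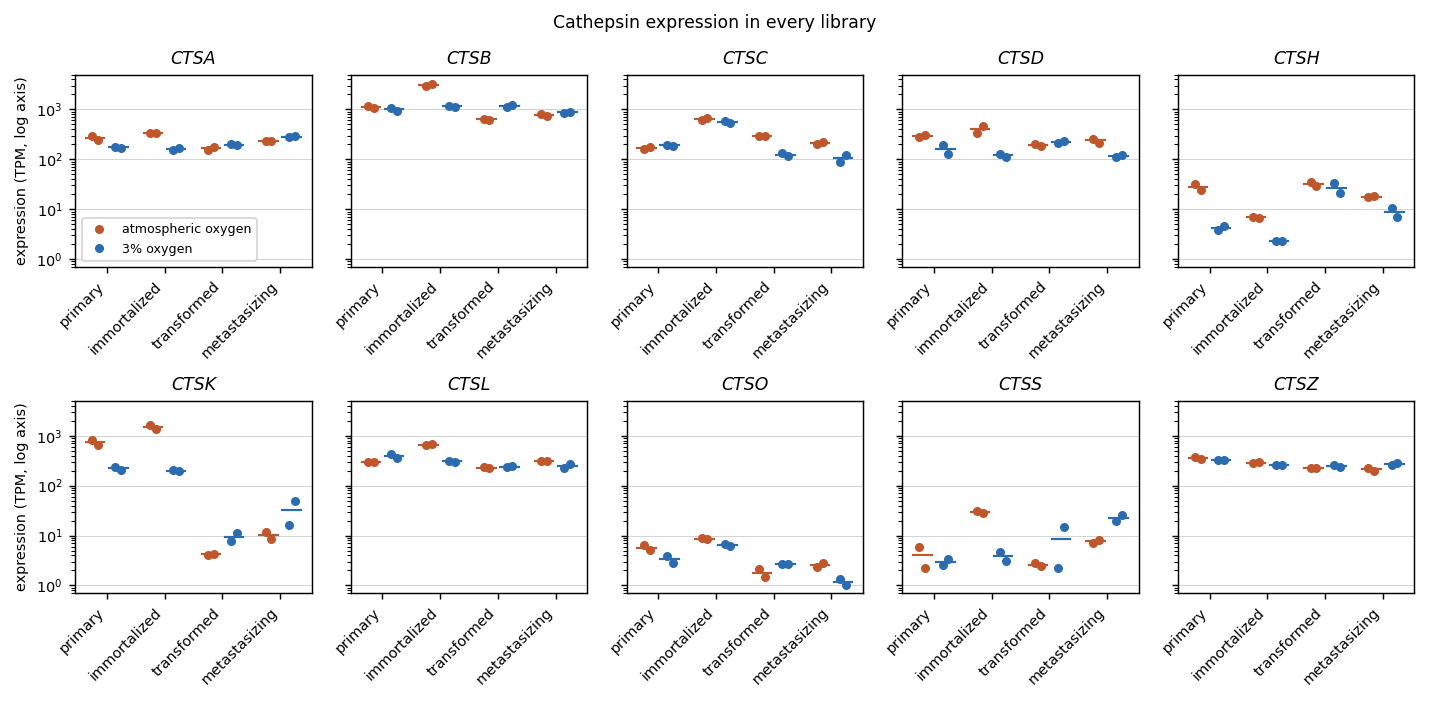
Expression of each cathepsin (TPM, log axis) in every library, by stage on the horizontal axis and by oxygen level in colour. Points are the 2 libraries of a group and lines their mean. CTSK falls from between 637 and 1641 TPM in the primary and immortalized libraries at atmospheric oxygen to 11.9 TPM or less in the later stages at that level.

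Most calls of cathepsins between oxygen levels were in immortalized cells. There 7 of the 10 were hDEGs, all lower at 3% oxygen, among them the abundant lysosomal proteases CTSB and CTSL as well as CTSD and CTSK. Over all genes tested in that stage 4.91% were hDEGs and 2.78% were lower hDEGs. Both libraries at 3% oxygen lay below both at atmospheric oxygen for all 10 members, as they did for 27.9% of all genes tested. The median log2 fold change of the 10 members was -1.25, against 0.11 over all genes. In the other stages 2 of the 10 (primary), 1 of the 10 (transformed) and 3 of the 10 (metastasizing) were hDEGs, all of them lower at 3% oxygen.

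In immortalized cells CTSK had the largest log2 fold change, -2.91 with an SE of 0.38 (limma adjusted p = 0.00045). CTSS fell by 2.79 (SE 0.62, limma adjusted p = 0.00774). CTSD fell by 1.70 (SE 0.20), CTSB by 1.42 (SE 0.097), CTSH by 1.40 (SE 0.24), CTSL by 1.10 (SE 0.10) and CTSA by 1.07 (SE 0.098) on the log2 scale. The limma adjusted p of these last members ran from 1.59e-05 for CTSB to 0.00193 for CTSH. CTSC (-0.21), CTSO (-0.36) and CTSZ (-0.17), the remaining members, were not called. The calls of CTSA, CTSB, CTSD, CTSK and CTSL held under every alternative that was run. Those of CTSH and CTSS were lost without any 1 of the 4 libraries, each left out in turn. Log2 fold changes then ran from -1.37 to -1.42 for CTSH and from -2.54 to -3.05 for CTSS. These lie beyond the fold threshold, so the calls were lost on the adjusted p alone. CTSS was also lost without the filter (limma adjusted p = 0.0267) and without the trend (0.0108). Rescaling by median ratios left the 7 calls as they were and moved the share of lower calls among all hDEGs from 56.6% to 72.2%. Of the fibroblast markers 1 of 10 was a lower hDEG here, with a list median of -0.04. Of the 8 leukocyte markers 3 passed the filter, with 1 called lower, 1 above 0 and a median of -0.21. The called one, CD14, was at 2.83 and 3.19 TPM at atmospheric oxygen and at 0.184 and 0.245 TPM at 3% oxygen, while AIF1 and TYROBP were at 0. The part of these markers in the result was not tested.

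In primary cells 5.3% of all genes tested were hDEGs and 2.52% were lower hDEGs. CTSH fell by 2.60 (SE 0.24, limma adjusted p = 5.32e-05) and CTSK by 1.73 (SE 0.38, limma adjusted p = 0.00745). The call of CTSK was lost without any 1 of the 4 libraries, at log2 fold changes of -1.53 to -1.92 and limma adjusted p of 0.0228 to 0.0609. CTSS was at -0.31, and at 0.31 without primary replicate a at atmospheric oxygen. The share of lower calls among all hDEGs was 47.5%, and 59.2% with rescaling, with the calls of CTSH and CTSK as before. Of the fibroblast markers 9 of 10 were below 0 and 1 was a lower hDEG in this stage, with a median of -0.55. The endothelial marker TEK was at 1.48 and 1.89 TPM at atmospheric oxygen and at 10.1 and 10.3 TPM at 3% oxygen and rose by 2.29 (SE 0.18), while CDH5 and VWF stayed below 1 TPM. The part of these markers in the members' values was not tested. CTSA (-0.63) and CTSD (-0.86) passed the limma adjusted p, at 0.00115 and 0.00918, but not the fold change. CTSD was called without primary replicate a at 3% oxygen, at -1.17. CTSB, the highest cathepsin, was at -0.14 (SE 0.097), and CTSL, which fell in immortalized cells, was at 0.40 (SE 0.10, limma adjusted p = 0.0166).

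In transformed cells 7.48% of all genes tested were hDEGs and 2.58% were lower hDEGs, and CTSC was the 1 member called. CTSC fell by 1.22 (SE 0.14, limma adjusted p = 0.000127). CTSB stood at a log2 fold change of 0.91 (SE 0.097), with both libraries at 3% oxygen above both at atmospheric oxygen and a limma adjusted p of 9.59e-05, and was short of the fold change. Weighting the libraries by their spread added a call of CTSK, at a limma adjusted p of 0.00583. The median over the 10 members was 0.22, against 0.01 over all genes. CTSK was at 1.06 (SE 0.38, limma adjusted p = 0.0507). CTSS was at 1.07 (SE 0.62), which rested on 1 library: it was at -0.17 without transformed replicate b at 3% oxygen, and at 2.31 and called without replicate a.

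In metastasizing cells 7.66% of all genes tested were hDEGs and 4.6% were lower hDEGs. CTSC fell by 1.01 (SE 0.14, limma adjusted p = 0.000455), CTSD by 1.02 (SE 0.20, limma adjusted p = 0.00353) and CTSH by 1.02 (SE 0.24, limma adjusted p = 0.00928). All 3 stood at the edge of the fold threshold, in the stage whose replicates at 3% oxygen differed most. The median of all genes in this stage was -0.13, and with the libraries rescaled by median ratios it was -0.0013. On that scale none of the 3 was called, at -0.88, -0.90 and -0.90, and CTSK was called higher at 1.58, against 1.45 (SE 0.38, limma adjusted p = 0.016) on the TPM scale, so that the calls went from 3 lower and 0 higher to 0 lower and 1 higher, and the share of lower calls among all hDEGs went from 60.0% to 48.6%. CTSK was at 0.69 without metastasizing replicate b at 3% oxygen, and at 2.22 and called without replicate a. Without metastasizing replicate a at 3% oxygen CTSC was at -0.77 and CTSD at -0.95, without replicate b at 3% oxygen CTSH was at -0.74, without replicate a at atmospheric oxygen CTSD was at -0.89, and without replicate b at that level CTSC was at -0.94. CTSD without replicate b, and CTSH without either replicate, at atmospheric oxygen missed the adjusted p, at 0.0124, 0.0445 and 0.0527 in limma. Of the fibroblast markers 5 of 10 were lower hDEGs in this stage, with a median of -1.57, and their part in the members' values was not tested. CTSZ (0.37, SE 0.084, limma adjusted p = 0.00783) passed the adjusted p and not the fold change. Relative to the median of all genes, the median of the 10 members was lower by 1.36 in immortalized and by 0.55 in primary cells and higher by 0.21 in transformed and by 0.04 in metastasizing cells on the log2 scale.

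**Figure D3:**
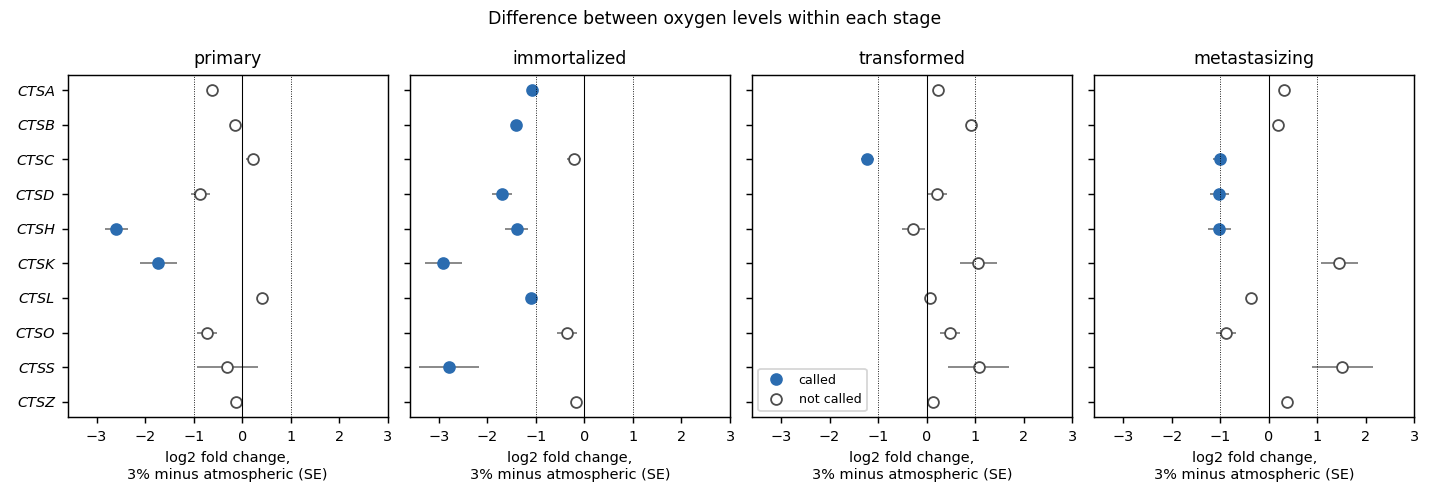
Log2 fold change of each cathepsin between oxygen levels (3% minus atmospheric, from limma) in each stage, with bars of 1 SE and dotted lines at -1 and 1. Filled points are called. In immortalized cells 7 of the 10 lie beyond -1 and are called, and in transformed cells 8 of the 10 lie above 0.

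Whether the oxygen response itself differed between neighbouring stages was tested as an interaction, the oxygen effect of the later stage minus that of the earlier. Between the primary and the immortalized stage 2 of the 10 members differed, against 1.86% of all genes: CTSB by -1.28 (SE 0.14, limma adjusted p = 0.000588) and CTSL by -1.50 (SE 0.15, limma adjusted p = 0.00037). CTSK, which fell at both stages, did not pass (-1.19). Between the immortalized and the transformed stage 7 of the 10 differed, against 12% of all genes. CTSK (3.97), CTSS (3.87), CTSB (2.33), CTSD (1.91), CTSA (1.31) and CTSL (1.16) shifted toward higher levels at 3% oxygen and CTSC (-1.01) toward lower levels. CTSB was called lower in immortalized cells and lay above the atmospheric libraries in transformed cells, with a limma adjusted p of 5.66e-06 for the difference. Between the transformed and the metastasizing stage 2 of the 10 differed, against 8.47% of all genes, CTSD by -1.24 and CTSO by -1.36, with limma adjusted p of 0.00901 and 0.00738. CTSD lost this call without any 1 of the 8 libraries of these stages (limma adjusted p of 0.0109 to 0.0368), and CTSO without any but metastasizing replicate a at 3% oxygen (0.0113 to 0.0358). In the preceding test CTSC lost its call without immortalized replicate a at either oxygen level, either transformed replicate at atmospheric oxygen or transformed replicate b at 3% oxygen (0.0123 to 0.0150), and CTSS without any immortalized library or either transformed replicate at atmospheric oxygen (0.0173 to 0.0300). With median-ratio rescaling CTSC was not called between the immortalized and transformed stages, nor CTSD and CTSO between the transformed and metastasizing stages, and the share of lower calls among all genes called went from 48.8% to 35.4% and from 66.4% to 53.4%.

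Between stages, CTSB, CTSC, CTSL and CTSS were called higher from primary to immortalized cells and then lower from immortalized to transformed cells at atmospheric oxygen, and CTSH was called in the opposite order. From primary to immortalized cells at that level 5 of the 10 members were DEGs, against 12.2% of all genes tested. CTSS rose by 2.83 (SE 0.62), CTSC by 1.96 (SE 0.14), CTSB by 1.48 (SE 0.097) and CTSL by 1.14 (SE 0.10) on the log2 scale, and CTSH fell by 1.95 (SE 0.24). Limma adjusted p ran from 1.18e-06 for CTSB to 0.00469 for CTSS. The call of CTSS was lost without primary replicate b and without either immortalized replicate at that oxygen level, with limma adjusted p of 0.0237 to 0.0494, and without the filter (0.0172) or with only the compared groups fitted (0.0128). CTSK was at 1.04 (SE 0.38, limma adjusted p = 0.0522) and not called. The median of the members was 0.79, against -0.09 over all genes.

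From immortalized to transformed cells at atmospheric oxygen 9 of the 10 members were DEGs, 8 of them lower, against 24.3% of all genes that were DEGs and 11.2% that were lower. CTSK fell by 8.32 (SE 0.38, limma adjusted p = 4.73e-08), from a mean of 1508 to 4.19 TPM. CTSS fell by 3.27 (SE 0.62), CTSB by 2.29 (SE 0.097), CTSO by 1.99 (SE 0.21) and CTSL by 1.52 (SE 0.10). CTSC, CTSD and CTSA fell by 1.15, 1.03 and 1.01, and CTSH rose by 2.13 (SE 0.24), with limma adjusted p of at most 0.0011 for all 9. CTSZ (-0.34, limma adjusted p = 0.00509) did not reach the fold change. The call of CTSA was lost without immortalized replicate b (-0.99) or transformed replicate a (-0.91), and that of CTSD without immortalized replicate b (-0.78) or transformed replicate b (-0.96), all at atmospheric oxygen. With median-ratio rescaling the 9 calls were as before, while the share of lower calls among all DEGs went from 45.9% to 61.5%. The median log2 fold change of the members was -1.34, against 0.22 over all genes. Of the fibroblast markers 7 of 10 were lower DEGs at the same step, the sum of the 10 went from at least 14811 to at most 5861 TPM, and their part in these changes was not tested.

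At 3% oxygen fewer members were called at the same steps, and whether the steps differ is what the interactions above test. From primary to immortalized cells 1 of the 10 was a DEG, CTSC, which rose by 1.53 (SE 0.14, limma adjusted p = 1.48e-05), against 9.23% of all genes. From immortalized to transformed cells 4 of the 10 were DEGs, against 16.3% of all genes. CTSK fell by 4.35 (SE 0.38), CTSC by 2.16 (SE 0.14) and CTSO by 1.15 (SE 0.21), and CTSH rose by 3.25 (SE 0.24), with limma adjusted p of at most 0.00117. Without immortalized replicate a at 3% oxygen CTSO was at -1.09 and not called, with a limma adjusted p of 0.0129. CTSC, CTSH, CTSK and CTSO were therefore called in the same direction at this step at both oxygen levels, while CTSB, which fell by 2.29 at atmospheric oxygen, was at 0.04 (SE 0.097) at 3% oxygen. Of the fibroblast markers 6 of 10 were lower DEGs at this step at 3% oxygen, against 915 of 12396 genes tested. The part of these markers in the members' changes was not tested.

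From transformed to metastasizing cells few members were called. At atmospheric oxygen 0 of the 10 were DEGs in limma, against 4.12% of all genes tested, while 7 of the 10 had an unadjusted p under 0.05, as did 33.5% of all genes tested. CTSA (0.45, SE 0.098) passed the adjusted p at 0.00919 and not the fold change. CTSK was at 1.17 (SE 0.38) and CTSS at 1.39 (SE 0.62), from low levels. Quantile normalization took the share of lower calls among all DEGs at this step from 41.7% to 52.2% and, at 3% oxygen, from 66.4% to 53.3%. At 3% oxygen CTSH was the 1 member of 10 called, against 5.92% of all genes, and fell by 1.56 (SE 0.24, limma adjusted p = 0.00103). CTSK was at 1.56 (SE 0.38, limma adjusted p = 0.0119) and was called higher on either rescaled scale.

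**Figure D4:**
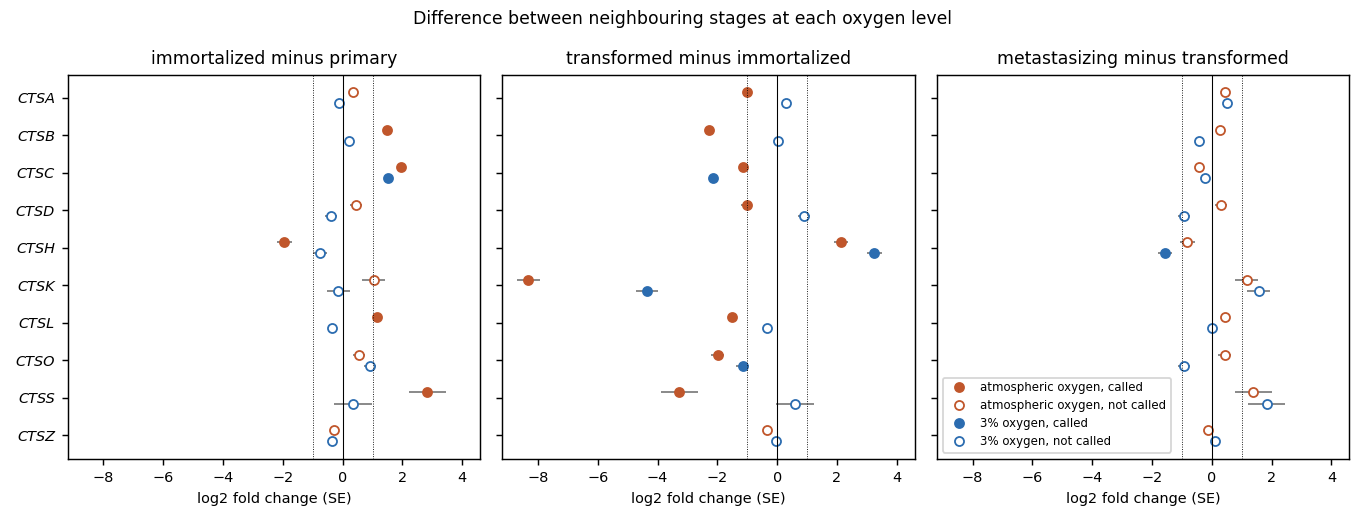
Log2 fold change of each cathepsin between neighbouring stages (later minus earlier, from limma) at atmospheric oxygen and at 3% oxygen, with bars of 1 SE and dotted lines at -1 and 1. Filled points are called. From immortalized to transformed cells at atmospheric oxygen, CTSK lies at -8.32 and 8 of the 10 are called lower.

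How the gene totals are made up differs between members. Over all libraries CTSK, CTSZ and CTSO rest almost wholly on 1 protein-coding transcript each (CTSK-201 with 99.1% of the gene's TPM, CTSZ-201 with 98.1% and CTSO-201), and CTSA-201 held 88.0%. In single libraries the share of CTSK-201 ran from 71.5% to 100%. CTSB was spread over CTSB-204 (50.2%), CTSB-223 (16.4%) and CTSB-216 (11.1%), CTSC over CTSC-201 (53.5%), CTSC-206 (16.8%) and CTSC-205 (16.3%), and CTSD over CTSD-201 (50.7%) and CTSD-205 (48.6%), all annotated as protein coding. The share of CTSD-201 ran from 30.7% to 77.3% in single libraries. CTSL-201 held 67.0% of CTSL and CTSL-205, an intron-retaining transcript, 26.4%. In CTSS the intron-retaining CTSS-204 held 50.1%, above the protein-coding CTSS-202 (27.5%) and CTSS-201 (20.9%). In CTSH transcripts annotated as protein coding held 10.6% of the TPM over all libraries (0% to 21.4% in a library), below CTSH-202 (34.2%, a target of nonsense-mediated decay), CTSH-214 (33.5%, intron-retaining) and as much as CTSH-217 (10.6%, no coding sequence defined). With protein-coding transcripts alone, CTSH was not called in primary cells (-1.84, limma adjusted p = 0.0303), was below the filter in immortalized cells, was called in transformed cells (-2.37, limma adjusted p = 0.00729) and was not called in metastasizing cells (-1.55, limma adjusted p = 0.0588). Its fall from primary to immortalized cells at atmospheric oxygen was not called on that basis either (-1.70, limma adjusted p = 0.0337), while CTSS was called in immortalized cells as before. At 3% oxygen CTSH was below the filter on that basis in the steps from immortalized to transformed and from transformed to metastasizing cells. How kallisto divides reads among overlapping transcripts sets these shares, and their accuracy was not tested. The 10 annotated CTSL pseudogenes together reached at most 0.316 TPM.

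**Figure D5:**
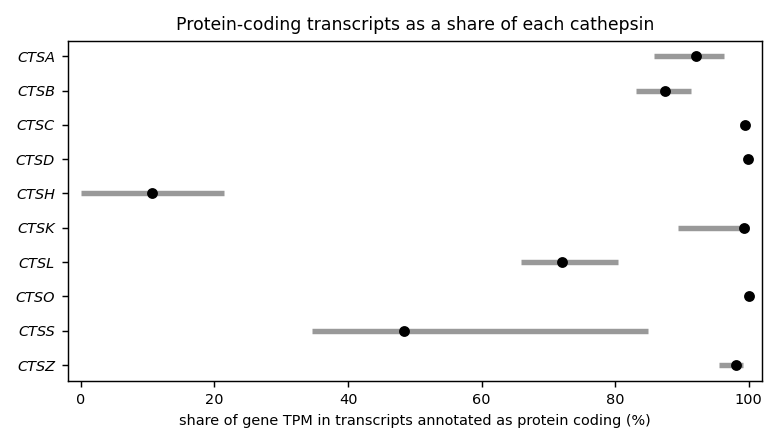
Share of each cathepsin's TPM that lies in transcripts annotated as protein coding (%). Points are over all 16 libraries and grey bars run from the lowest to the highest library. CTSH (10.6%) and CTSS (48.4%) lie lowest.

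Other genes of the lysosome were read beside the members in lists fixed by gene name, as counts of hDEGs. In immortalized cells 1 of 3 tested genes among other cathepsins and legumain, 1 of 3 cathepsin inhibitors, 6 of 29 other soluble hydrolases and activators and 1 of 10 lysosomal membrane proteins were lower hDEGs, and none of these lists held a higher one. Over all genes tested in that stage 2.78% were lower hDEGs and 4.91% were hDEGs in either direction. The sorting genes (8 tested), the MiT/TFE factors (3 tested) and the V-ATPase subunits that acidify the lysosome (15 tested) held 0 hDEGs in that stage. The medians were -0.50 for the hydrolases, -0.72 for the membrane proteins, -0.39 for the sorting genes and -0.25 for the V-ATPase, against -1.25 for the 10 members and 0.11 for all genes. TFEB, TFE3 and MITF were thus not called, and their own median was -0.09. In primary cells 1 of 2 other cathepsins was lower and 1 of 10 membrane proteins higher, and the hydrolases held 0 of 29, against 2.52% of all genes that were lower and 2.78% that were higher hDEGs.

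In transformed cells 2 of 29 hydrolases were higher and 2 lower, and 2 of 10 membrane proteins were higher. Of 3 tested genes among other cathepsins and legumain, 1 was higher and 1 lower. Over all genes tested 4.9% were higher and 2.58% were lower hDEGs. In metastasizing cells 7 of 29 hydrolases were lower, with 1 of 8 sorting genes, 1 of 15 V-ATPase subunits and 1 of 4 other cathepsins. Of 4 inhibitors 1 was higher, and over all genes 4.6% were lower and 3.06% were higher hDEGs. The counts of these lists are on the TPM scale and were not taken on a rescaled one. With median-ratio rescaling, lower hDEGs over all genes in metastasizing cells went from 565 to 441. The medians in that stage were -0.65 for the hydrolases, -0.61 for the membrane proteins, -0.35 for the sorting genes and -0.29 for the V-ATPase. The inhibitors were at 0.28 and the 10 members at -0.09, against -0.13 for all genes. CTSF, another papain-family cathepsin, was at 41.1 and 39.9 TPM in immortalized cells at atmospheric oxygen and at 14.7 and 14.4 TPM at 3% oxygen, and fell by 1.44 (SE 0.12, limma adjusted p = 4.72e-05). It also fell in primary cells, by 1.23, and rose in transformed cells, by 1.07. LGMN, the legumain that processes several cathepsins, fell by 1.44 (SE 0.14) in metastasizing cells, from a mean of 77.1 to 28.1 TPM. CST3, the secreted inhibitor cystatin C, fell with the proteases in immortalized cells, by 1.11 (SE 0.13), from a mean of 248 to 115 TPM. CSTA, the intracellular inhibitor stefin A, rose by 3.43 (SE 0.33) in metastasizing cells, from a mean of 0.0671 to 5.58 TPM. SCARB2, the sorting receptor of glucocerebrosidase, fell by 1.09 (SE 0.080) in the same cells.

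Among the hydrolases FUCA1, a fucosidase, fell by 1.77 (SE 0.15) in metastasizing cells. NAGLU, which degrades heparan sulfate, fell by 1.54 (SE 0.28) in immortalized cells. TPP1, a tripeptidyl peptidase, rose by 1.36 (SE 0.29) in transformed cells, where CTSB also stood higher at 3% oxygen. Among the membrane proteins CTNS, the cystine exporter, fell by 1.22 (SE 0.16) in immortalized cells. SLC17A5, the sialic acid exporter, rose by 1.17 (SE 0.22) in transformed cells, and NPC1, the cholesterol exporter, rose by 1.09 (SE 0.12) in primary cells. ATP6AP1, an accessory subunit of the V-ATPase, fell by 1.64 (SE 0.33) in metastasizing cells. It was at 169 and 95.9 TPM there at atmospheric oxygen, which lie far apart, and at 40.7 and 40.4 TPM at 3% oxygen. The limma adjusted p of the changes named from these lists was at most 0.00460.

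The group means of the members moved together only in part. Over the 8 group means of log2(TPM + 0.5), Pearson's r between members was highest for CTSB with CTSL (0.83), CTSA with CTSS (0.83) and CTSK with CTSO (0.83) and lowest for CTSH with CTSK (-0.49). Among 13145 protein-coding genes, those most like CTSK over these 8 means were CHMP2A (0.98), ANXA11 (0.97) and TCIM (0.97). Those most like CTSH were BAD (0.97), ENDOG (0.96) and MCRIP2 (0.96), and those most like CTSS were STKLD1 (0.96), CSF3 (0.95) and CSF2 (0.95). With 8 points the most alike of so many genes reach high values, the points share stages and oxygen levels, and these correlations are descriptions without a p.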

How the data were processed

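Total RNA of 16 plates was sequenced from stranded poly-A libraries. The deposited values are TPM per transcript, which the authors made with kallisto 0.42.1 against GRCh37, with no counts, so that depth is unknown and no counting interval can be given. Default parameters were used, which ignore strand. TPM were summed per gene through GENCODE 44 (GRCh37 coordinates): 151453 of 180253 transcripts were matched, which hold 88.2% to 90.1% of each library's TPM, while 28800 transcripts and 1 stray line were left out. The fit used limma 3.58.1 (R 4.3.3) with an intensity trend on log2(TPM + 0.5), 1 coefficient for each of the 8 groups (8 residual degrees of freedom), and genes of at least 1 TPM on average in 1 of the groups compared. The authors tested with edgeR, which needs counts, so the hDEGs here are not the same set as those of the study. This fit called 646, 592, 916 and 941 hDEGs in the order of the stages, most in metastasizing cells. The study reported its fewest in that stage. Figures and tables used Python 3.11.15, pandas 2.3.3, numpy 2.4.6 and matplotlib 3.10.9. The fit was also run on simulated data, and no result of that run is given or relied on here.

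The members and lists were chosen with earlier results of these data known. All members are named. From each list of lysosomal genes the text names at most 3 genes, those called with the largest absolute change over the 4 oxygen comparisons, with the further CTSF values added after they were seen. The cell type markers named were chosen after their values were seen. The 3 genes most like each of the 3 members of widest range are named, and transcripts of at least 10% of a member's TPM. Alternatives changed the pseudocount (1 or 0.1 TPM), the filter (none or 5 TPM), the scaling (median ratio or quantile), the libraries fitted, the replicate block, the trend, the adjusted p (0.05), the gene set, the transcripts, the library weights and each library left out in turn, where the lone library of a group is assumed to vary like the other groups.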

Additional observations from a re-analysis of the deposited data

Results flagged for a closer look

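The oxygen response of a member differed between neighbouring stages, by a limma interaction test, in 11 cases. In the order of the stages 2, 7 and 2 of the 10 members differed, against 1.86%, 12% and 8.47% of all genes tested. Values for the members are the log2 oxygen effect of the later stage minus that of the earlier. Between the primary and immortalized stages the differences were -1.28 for CTSB and -1.50 for CTSL. Between the immortalized and transformed stages they were 1.31 for CTSA, 2.33 for CTSB, -1.01 for CTSC, 1.91 for CTSD, 3.97 for CTSK, 1.16 for CTSL and 3.87 for CTSS. Between the transformed and metastasizing stages they were -1.24 for CTSD and -1.36 for CTSO. The calls of CTSD and CTSO between these stages were lost under many alternatives. So were those of CTSC and CTSS between the immortalized and transformed stages. Neighbouring tests share the libraries of the stage between them. With 2 libraries a group, no group was large enough for a test of single libraries that stand apart.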

How the results depend on the processing

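Of 44 calls of members over the comparisons, 27 held under every alternative and left-out library in which the member passed the filter. Among these, CTSH from immortalized to transformed cells at 3% oxygen was below the filter with protein-coding transcripts alone. For the oxygen response in primary cells 2 members were called, and 1 without the filter, with only the compared groups fitted, with the replicate block, without the trend or with protein-coding transcripts alone. In transformed cells 1 became 2 with protein-coding transcripts or array weights. In metastasizing cells 3 became 1, CTSC, without the filter or with array weights, and 0 with only the compared groups. Median-ratio or quantile scaling in that stage replaced the 3 lower calls with 1 higher call, that of CTSK. From transformed to metastasizing cells, 0 became 1 at atmospheric oxygen with only the compared groups or array weights. At 3% oxygen 1 became 2 with a pseudocount of 0.1 TPM or median ratios, 3 with quantile scaling or an adjusted p under 0.05, and 0 with only the compared groups or array weights. For the difference in response between these stages 2 became 0 without the filter, with median ratios, only the compared groups or array weights, and 1 with a filter of 5 TPM, quantile scaling, the replicate block, no trend or all genes. The cause was not tested.

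Leaving out 1 library gave 1 to 2 calls for the oxygen response in primary cells, 5 in immortalized, 1 to 2 in transformed and 0 to 2 in metastasizing cells. For the steps at atmospheric oxygen it gave 4 to 5, 7 to 9 and 0 calls, at 3% oxygen 1, 3 to 5 and 1 to 2, and for the differences in response 2, 5 to 7 and 0 to 1. CTSS in primary cells ran from -0.93 to 0.31, the latter without replicate a at atmospheric oxygen. In transformed cells CTSH ran from -0.60 to 0.048 and CTSS from -0.17 to 2.31, with the sign turned without replicate b at 3% oxygen. The letters a and b mark plates and nothing says that they pair them, and same-lettered libraries correlated in their deviations at -0.169 to 0.246. With the replicate block hDEGs over all genes went from 646 to 601, 592 to 576, 916 to 879 and 941 to 896 in the order of the stages. The replicate block also ended the calls of CTSK in primary (limma adjusted p = 0.0114) and CTSS in immortalized cells (0.0115) and of the differences in response of CTSS between the immortalized and transformed (0.0105) and of CTSD between the transformed and metastasizing stages (0.0137), and no other call of a member. The difference in response of CTSS was also lost without the filter (0.0233) and with only the compared groups (0.0220). A crossed replicate block, chosen after seeing the data, gave 606, 572, 879 and 896, and took members called from 1 to 2 at the last step at 3% oxygen and from 2 to 0 in the last difference in response. Array weights gave 770, 853, 1045 and 375. Pairs of libraries limit the precision.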
